A study of Homo sapiens with 18 samples.

Results

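The cells described here are anterior neural ectoderm that was moved into a hindbrain medium. They were compared with the day-2 population they came from, to ask which genes changed over that step. The group names are those of the deposited table. The aNE group held anterior neural ectoderm at day 2. The aNE_H group held the same kind of cells carried on to day 4 in hindbrain medium. Each group had 2 biological replicates, so the comparison rests on 4 of the 18 libraries. A gene was tested if it had a TPM, the transcript abundance scaled to a fixed sum per library, of at least 1 in at least 2 of the 4 libraries, which kept 14648 of the 37550 rows. All libraries came from 1 wild-type embryonic stem cell line, H1, an established human pluripotent line.

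Per the labels, all neural ectoderm began with 24 h of definitive ectoderm medium. That medium held the TGF-beta receptor inhibitor A8301 at 1 µM, the MEK inhibitor trametinib at 250 nM, the porcupine inhibitor C59 at 1 µM and the BMP receptor inhibitor LDN193189 at 100 nM. The aNE cells then spent day 2 in A8301 at 1 µM, LDN193189 at 100 nM, C59 at 1 µM and thiazovivin, a ROCK inhibitor, at 1 µM. Libraries used for comparison were aNE_T and aNE_M, which are aNE cells carried to day 4 in a forebrain or a midbrain medium, and pNE and pNE_H, which are posterior neural ectoderm at day 2 and after hindbrain medium at day 4. The pNE medium on day 2 held A8301, LDN193189 and thiazovivin as well, and in place of C59 it had XAV939 (1 µM), which blocks tankyrase, together with 20 ng/mL FGF2 and 50 nM TTNPB, a synthetic ligand of retinoic acid receptors. Undifferentiated cells at day 0 are named hPSC. What the hindbrain medium and the midbrain medium contained is not given in the sources used here. Of the forebrain medium only the day-3 supplements are given, which were XAV939 at 1 µM, LDN193189 at 100 nM and FGF2 at 20 ng/mL. Plating density was 37500 cells per cm2 for day-2 cells, 75000 for day-4 cells of aNE origin and 150000 for day-4 cells of pNE origin. Age, medium and plating density therefore changed together between aNE and aNE_H, and their parts in any difference below cannot be told apart. The 3 day-4 groups of aNE origin shared their age and plating density.

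In the vertebrate embryo the neural plate is first anterior in character and acquires hindbrain and spinal identity under WNT, FGF and retinoic acid signals from more caudal tissue. OTX2 marks the forebrain and midbrain and GBX2 the anterior hindbrain, and the border where these mutually repressing homeobox genes meet becomes the isthmus. Within the hindbrain the segments called rhombomeres are told apart by HOX genes of the first paralogous groups together with other transcription factors such as EGR2.

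The libraries resembled each other in general quality. Between 13811 and 14602 genes had at least 1 TPM in the 4 libraries, and the 10 most abundant genes took 6.15% to 6.55% of a library's TPM. Pearson's r across 17033 genes, which are not independent replicates, was 0.985 between the aNE libraries and 0.984 between the aNE_H libraries, against 0.945 to 0.947 between the groups. Transcripts of the mitochondrial genome took 3.19% and 3.28% of TPM in aNE and 2.06% and 2.00% in aNE_H. This difference lay in the same direction for the list of 13 mitochondrially encoded genes (median log2 fold change -0.76), of which limma called 0, with 12 lower at an unadjusted p below 0.05. Most of the 12 also had an adjusted p below 0.05, with a log2 fold change under 1 in size, such as MT-CO1 with -0.89. The aNE label was borne out by its markers, since SIX3 stood at 187 and 192 TPM, LHX5 at 258 and 258, OTX2 at 203 and 214, SOX2 at 289 and 297 and PAX6 at 28.9 and 29.3 in the 2 libraries. The hindbrain label of aNE_H was not borne out by HOX genes, which are described below, so the group is called by its medium throughout.

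Values were compared as log2(TPM + 1). A gene was called when limma gave an adjusted p below 0.05 and the log2 fold change was 1 or more in size. Fold changes below are on this scale with the SE from limma, adjusted p-values are Benjamini-Hochberg values over all genes tested in that comparison, and the 2 numbers given for a group are its 2 libraries in replicate order. Of the 14648 genes tested, 1711 were called (11.7%), 550 higher in aNE_H (3.75%) and 1161 lower (7.93%). Of the calls 32.1% were rises, and without aNE replicate 1 the share was 42.4% of 1340. A log2 fold change beyond 2 was reached by 155 of the genes that rose and 252 of those that fell. The median over all tested genes was -0.04. The groups did not overlap for 1711 of the 1711 called genes, while 69.1% of all tested genes had groups that did not overlap. Among the genes that only just met the size threshold were FAM169A, EBI3 and TGFBI, with log2 fold changes of 1.0, -1.0 and -1.0, and each lost its call when a library was left out: without aNE_H replicate 1 (log2 0.82) and without aNE replicate 1 (log2 0.95) for FAM169A, without aNE_H replicate 1 (log2 -0.89) for EBI3 and without aNE_H replicate 2 (log2 -1.0) and without aNE replicate 1 (log2 -0.86) for TGFBI. ZNF589, BOK and CLDN5 had an adjusted p below 0.05 and fell just short of the size threshold.

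**Figure D1:**
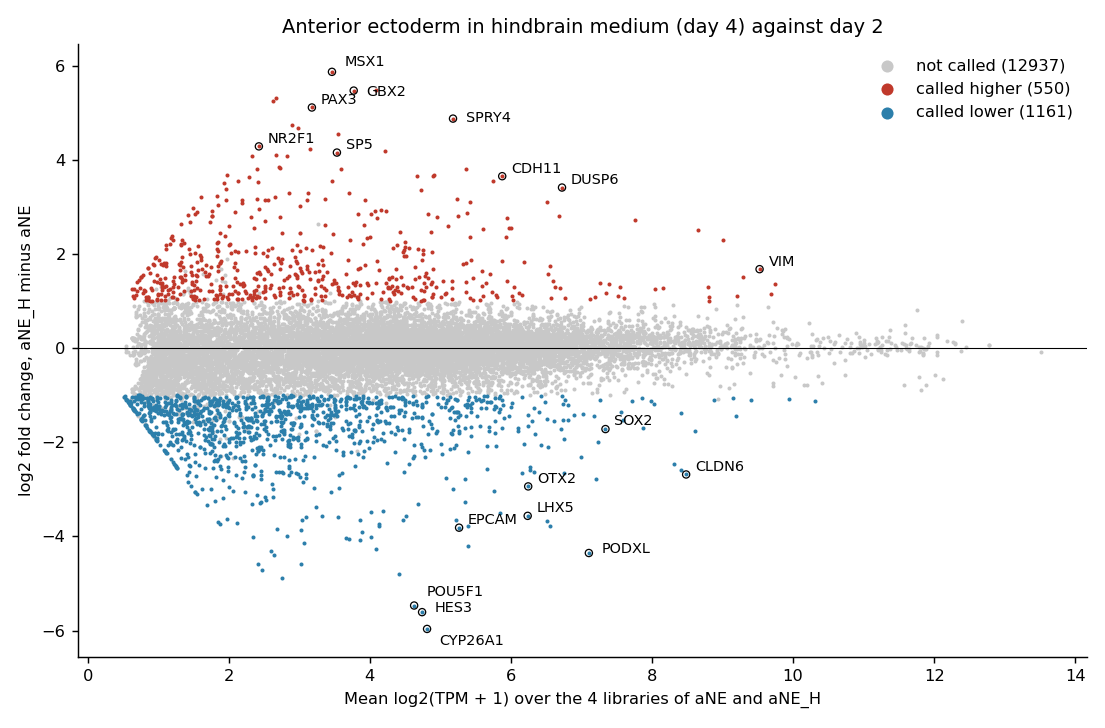
Log2 fold change of each of the 14648 tested genes between aNE_H and aNE (vertical axis) against its mean log2(TPM + 1) over the 4 libraries (horizontal axis). The 550 genes called higher are red, the 1161 called lower are blue and the rest are grey; MSX1 has the highest named rise at 5.87 and CYP26A1 the deepest named fall at -5.96.

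The gene lists below were assembled around brain regions, signalling pathways and cell types. Of their 522 genes, 519 were in the table and 402 were tested. A list's counts can be read against the 3.75% of all tested genes that rose and the 7.93% that fell. Many list genes sat near the filter on low values: a gene with at least 1 TPM in aNE_H alone no longer met that filter when 1 aNE_H library was left out, and the smaller counts given below for such fits come in part from fewer genes tested. Of 184 named genes called, 27 were no longer tested without 1 of the aNE_H libraries and 16 without 1 of the aNE libraries. A gene below 1 TPM in 1 group passed only through the group where it was high, so its direction was largely set by the filter, and list counts are descriptions. As in any bulk sample, fewer cells of a type and less RNA per cell cannot be told apart.

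**Figure D2:**
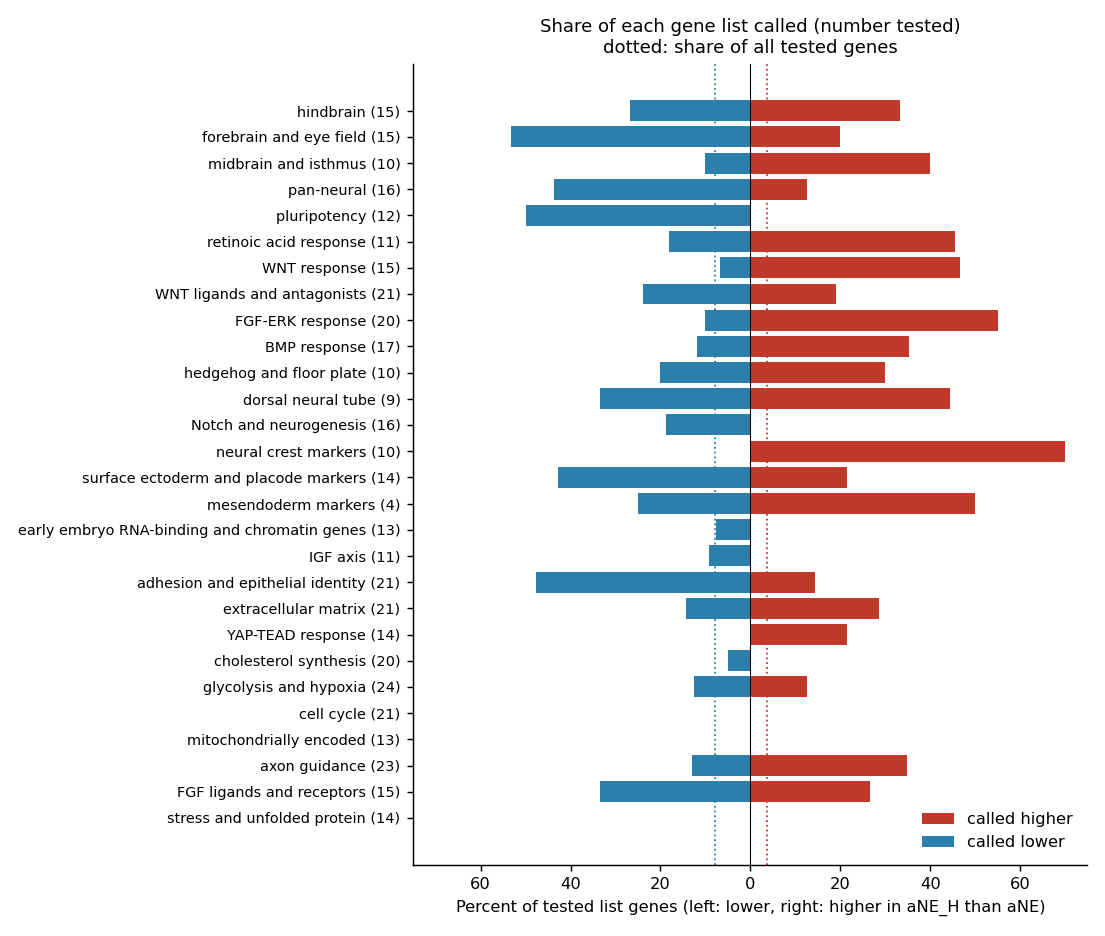
Percent of the tested members of each gene list that were called higher (red, to the right) or lower (blue, to the left) in aNE_H than in aNE, with the number tested in brackets. Dotted lines mark the shares over all tested genes, 3.75% higher and 7.93% lower; 11 of 20 genes of the FGF-ERK response rose, and no gene of the cell cycle, mitochondrially encoded or stress lists was called.

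The HOX genes that mark the hindbrain stayed silent at this measure. All 12 HOX genes of paralogous groups 1 to 4 on the list were listed at 0 in both aNE_H libraries, and their sum was 0.567 and 0.273 TPM in the aNE libraries. None met the filter, so none was tested. Their level was high in the cells of posterior origin in the same medium: HOXB1 stood at 347 and 312 TPM in the pNE_H libraries and HOXB2 at 253 and 172. HOXB1 had been at 15.2 and 19.5 TPM and HOXB2 at 10.5 and 11.7 in pNE at day 2, before the hindbrain medium. The 18 members of HOX groups 5 to 9 and the CDX genes summed to 0.929 and 0.319 TPM in aNE_H, and 0 of them were tested.

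Other hindbrain genes moved in both directions. Of 20 genes without a HOX name, 15 were tested, 5 rose and 4 fell, with a median of 0.55. The count of rises was 3 of 13 when either aNE_H library was left out. GBX2, the anterior hindbrain homeobox gene, was at 1.04 and 1.05 TPM in aNE and 91.9 and 88 in aNE_H, a rise of 5.47 ± 0.20 (adjusted p = 1.73e-10). NR2F1, an orphan nuclear receptor expressed in hindbrain and caudal forebrain, went from 0.0701 and 0.381 to 23.3 and 22.2 TPM and rose by 4.29 ± 0.17 (adjusted p = 4.66e-10). ZNF503, a zinc finger gene that acts with retinoid signals in the rhombomeres, went from 1.04 and 1.43 to 15.3 and 11.9 TPM, a rise of 2.70 ± 0.17 (adjusted p = 4.42e-08). For these 3 genes both aNE_H libraries lay far above both aNE libraries. MEIS3, a HOX cofactor, rose by 1.38 ± 0.10 (adjusted p = 2.7e-07). The other HOX cofactors MEIS1 and MEIS2 had differences of 0.55 ± 0.22 (adjusted p = 0.073) and 0.30 ± 0.12 (adjusted p = 0.0764) and were not called. EGR2, the segmentation gene of rhombomeres 3 and 5, was too low to be tested, at 0.734 and 1.09 TPM in aNE and 0.202 and 0.0320 in aNE_H, against 7.47 and 6.54 in pNE_H. The 4 falls were those of EPHA4, an ephrin receptor of alternating rhombomeres, from 87.6 and 89.9 to 39 and 32.4 TPM, of IRX3 and IRX5, Iroquois homeobox genes, which changed by -1.95 ± 0.21 and -1.52 ± 0.21, and of the activin antagonist FST, which fell by 1.44 ± 0.14.

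Forebrain genes fell more often than they rose. Of the 24 forebrain and eye field genes, 15 were tested, 8 fell and 3 rose, with a median of -1.52. OTX2 went from 203 and 214 TPM to 25.2 and 27.7, a change of -2.94 ± 0.14 (adjusted p = 3.45e-09), and the hPSC libraries had 26.1 and 28.5 TPM. LHX5, a LIM homeobox gene of the early forebrain, fell from 258 and 258 to 25.8 and 17 TPM. FEZF1, a zinc finger gene of the anterior neural plate, fell from 323 and 325 to 32.2 and 18.4 TPM. In each of these the groups were far apart and the 2 aNE libraries nearly equal. SIX3, which represses caudal identity in the forebrain, kept 73.8 and 58.1 TPM in aNE_H against 187 and 192 in aNE, a change of -1.52 ± 0.15 (adjusted p = 3.87e-06). HESX1, a homeobox repressor of the anterior neural ridge and pituitary, went from 105 and 118 to 4.51 and 1.95 TPM and had the deepest fall of the list at -4.80. PAX6, FEZF2 and the eye field gene RAX fell with changes of -2.70 ± 0.21 (adjusted p = 3.84e-07), -2.04 ± 0.24 and -3.38 ± 0.42. The aNE_H replicates of RAX lay far apart, at 4.75 and 0.487 TPM, and both were below the 26.8 and 32.2 TPM of aNE.

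The forebrain genes that rose included genes of the ventral forebrain and the anterior neural ridge. VAX1, a homeobox gene of the optic stalk and ventral forebrain, went from 0.560 and 0.549 to 38.5 and 39.1 TPM, a rise of 4.68 ± 0.21 (adjusted p = 1.45e-09). SP8, a zinc finger gene of the anterior neural ridge, went from 7.57 and 8.69 to 59.9 and 40.5 TPM. For both genes the groups were far apart. Without aNE_H replicate 1 the count of rises was 1 of 12. LHX2, which specifies eye and forebrain, was at 31 and 18 TPM in aNE_H and was not called, with a difference of 0.69 ± 0.32 (adjusted p = 0.109). SIX6, another eye field gene, was at 2.86 and 3.20 TPM and was not called, with a difference of 0.23 ± 0.18 (adjusted p = 0.357).

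Midbrain and isthmus genes were low. Of 18, only 10 were tested, 4 rose and 1 fell, with a median of 0.58. PAX5, an early gene of the isthmus, went from 0.129 and 0.0652 to 8.77 and 19.1 TPM, a rise of 3.68 ± 0.35 (adjusted p = 2.44e-06). FGF17 and FGF18, secreted signals of the isthmus, rose by 2.89 ± 0.18 and 1.84 ± 0.20. The AP-2 gene TFAP2B rose by 1.78 ± 0.21, to 2.80 and 2.25 TPM. With either aNE_H library left out, 0 of 6 tested genes rose. The fall was that of the roof plate gene LMX1A, from 4.41 and 4.80 to 0.153 and 0.0756 TPM, and without either aNE library 0 of 9 fell. EN1, the engrailed gene of midbrain and rhombomere 1, was listed at 0 in both aNE libraries and stood at 0.989 and 0.749 TPM in aNE_H, below the filter, while aNE_M had 141 and 128 TPM. PAX2 was at 2.55 and 1.59 TPM in aNE_H and 100.4 and 101 in aNE_M.

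**Figure D3:**
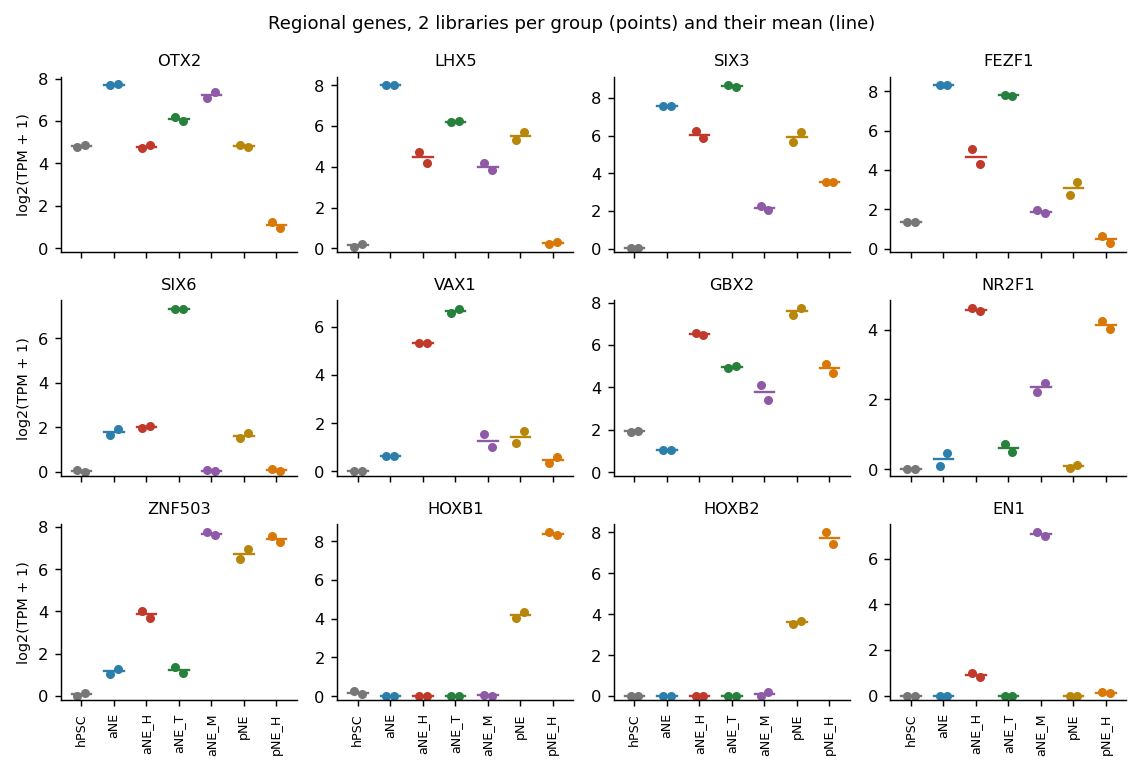
Log2(TPM + 1) of 12 regional genes in each library of 7 groups (points) with the group mean (line); each panel has its own vertical scale. In aNE_H, OTX2, LHX5 and FEZF1 lie below aNE, GBX2, NR2F1 and VAX1 lie above it, and HOXB1 and HOXB2 stay at 0 while both are high in pNE_H.

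Many rises were seen among genes that FGF signalling through ERK turns on. All 20 genes of the FGF-ERK response list were tested, 11 rose and 2 fell, with a median of 1.31. The counts of rises under all alternatives lay between 10 and 12. SPRY4, a feedback inhibitor of receptor tyrosine kinase signalling, went from 6.40 and 5.03 TPM to 203 and 188 and rose by 4.88 ± 0.10 (adjusted p = 3.08e-12). DUSP6, the phosphatase that inactivates ERK, went from 29.3 and 33.6 to 337 and 352 TPM and rose by 3.41 ± 0.08 (adjusted p = 3.08e-12). IL17RD, a membrane antagonist of FGF receptors, went from 9.75 and 10.2 to 166 and 142 TPM. The ETS transcription factor ETV5 went from 6.09 and 8.47 to 86.5 and 80.9 TPM and its relative ETV4 from 10.7 and 12.2 to 70.8 and 65.2. In all 5 genes the libraries of a group were close to each other and far from the other group. SPRY1, SPRY2, SPRED2, SPRED3, DUSP4 and IER3 also rose, by 1.15 for SPRED3 to 3.10 for SPRY2, and SPRED3 lost its call without aNE_H replicate 2 (log2 0.80) and without aNE replicate 2 (log2 0.94). The falls were those of 2 immediate early genes, EGR1, from 15.7 and 15.3 to 3.41 and 3.18 TPM, and FOSL1, from 17.2 and 17.4 to 6.77 and 5.07 TPM. The hPSC libraries had 149 and 156 TPM of DUSP6 and 53.1 and 61.4 of SPRY4, so both genes were lower in aNE than in hPSC and higher in aNE_H than in either.

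The 4 FGF receptor genes FGFR1 to FGFR4 fell. Of 16 genes for FGF ligands and receptors, 15 were tested, 4 rose and 5 fell. FGFR1 went from 739 and 696 to 225 and 201 TPM, FGFR2 from 89.4 and 88.2 to 20.6 and 16.6 and FGFR3 from 179 and 176 to 29.4 and 25.6. FGFR4 fell by 1.11 ± 0.11 (adjusted p = 5.32e-06) and lost its call without aNE_H replicate 2 (log2 -0.97) and without aNE replicate 1 (log2 -0.95), and the ligand FGF2 fell from 41 and 37 to 12 and 10.2 TPM. FGFRL1, a receptor-like gene without a kinase domain, went from 17.7 and 18.1 to 33.1 and 26.6 TPM and was not called, with a difference of 0.70 ± 0.13 (adjusted p = 0.000819). FGF12 and FGF13, intracellular members of the family, rose by 1.81 ± 0.37 and 1.85 ± 0.10. The other rises were those of FGF17 and FGF19, the latter from 0.291 and 0.237 to 2.75 and 1.88 TPM. Without aNE_H replicate 1, 2 of 11 tested members rose.

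Several targets of canonical WNT signalling rose. Of 18 WNT response genes, 15 were tested, 7 rose and 1 fell, with a median of 0.91. AXIN2, a feedback component of the beta-catenin destruction complex, went from 6.27 and 5.55 to 35.1 and 32.8 TPM, a rise of 2.34 ± 0.10 (adjusted p = 7.8e-10). LEF1, a nuclear partner of beta-catenin, went from 4.14 and 6.31 to 45.2 and 44.9 TPM and rose by 2.91 ± 0.21 (adjusted p = 1.59e-07). SP5, a zinc finger gene that is a direct WNT target, went from 1.44 and 2.08 to 68.6 and 33.3 TPM and rose by 4.16 ± 0.39 (adjusted p = 2.46e-06). The SP5 replicates of aNE_H were far apart and both lay above the aNE libraries. NKD1, RNF43 and APCDD1, which act as feedback antagonists, rose by 2.14 ± 0.49, 1.99 ± 0.19 and 1.09 ± 0.24, and SP6 rose by 1.68 ± 0.14. APCDD1 lost its call without aNE_H replicate 1 (log2 0.82) and without aNE replicate 2 (log2 0.97). TNFRSF19 fell from 7.88 and 7.41 to 2.62 and 2.22 TPM. The midbrain medium gave higher levels, with AXIN2 at 315 and 312 TPM, SP5 at 706 and 473 and LEF1 at 125 and 152. Among 21 tested WNT ligands, receptors and secreted antagonists, 4 rose (WNT3, FZD1, FZD10 and DKK2) and 5 fell (FZD5, FZD7, SFRP1, RSPO1 and RSPO2), and with either aNE_H library left out 1 of 18 rose. FZD7 lost its call without aNE_H replicate 2 (log2 -0.95). FZD5, a frizzled receptor of the eye field, went from 189 and 189.5 to 49.7 and 37.9 TPM, and SFRP1, a secreted WNT antagonist, from 557 and 539.7 to 222 and 199 TPM.

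The upstream sequences of 4 genes are shown because these genes carried the largest named rise (MSX1), the largest named fall (CYP26A1), the largest rise among WNT response genes (SP5) and the largest rise among hindbrain genes (GBX2). Each is the 250 bases before the gene's start in RefSeq on GRCh38.p14, read 5′ to 3′ on the gene's own strand. The windows are chr4:4859415-4859664 (plus strand) for MSX1, chr10:93073225-93073474 (plus strand) for CYP26A1, chr2:170715087-170715336 (plus strand) for SP5 and chr2:236168387-236168636 (minus strand) for GBX2. Capitals mark matches to 1 of 4 motifs searched on both strands, CTTTGA for TCF/LEF factors, AGGTCA for nuclear receptors, GACCACCCA for GLI factors and TTCCCA for RBPJ, and no matches overlapped.
SP5: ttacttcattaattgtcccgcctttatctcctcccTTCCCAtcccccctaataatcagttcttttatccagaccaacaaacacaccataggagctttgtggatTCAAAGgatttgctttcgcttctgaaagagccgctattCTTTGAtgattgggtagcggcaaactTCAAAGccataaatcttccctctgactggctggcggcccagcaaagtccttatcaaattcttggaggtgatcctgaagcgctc
GBX2: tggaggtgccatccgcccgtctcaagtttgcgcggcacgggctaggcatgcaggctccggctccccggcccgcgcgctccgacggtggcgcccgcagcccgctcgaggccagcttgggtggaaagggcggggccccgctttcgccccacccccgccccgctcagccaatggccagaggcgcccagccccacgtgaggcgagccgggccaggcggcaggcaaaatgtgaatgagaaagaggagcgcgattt
MSX1: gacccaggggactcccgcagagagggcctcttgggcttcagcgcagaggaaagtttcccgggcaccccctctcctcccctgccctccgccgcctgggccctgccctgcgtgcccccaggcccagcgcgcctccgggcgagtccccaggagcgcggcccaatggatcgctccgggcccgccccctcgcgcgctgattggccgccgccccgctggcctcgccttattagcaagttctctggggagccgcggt
CYP26A1: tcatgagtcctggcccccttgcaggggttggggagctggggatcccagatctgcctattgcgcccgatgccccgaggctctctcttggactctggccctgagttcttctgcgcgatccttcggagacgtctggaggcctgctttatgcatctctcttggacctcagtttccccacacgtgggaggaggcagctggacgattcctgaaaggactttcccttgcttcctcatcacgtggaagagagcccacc

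The SP5 window held the TCF/LEF motif 3 times, 1 time as CTTTGA and 2 times as its complement TCAAAG, at 109, 147 and 83 bases before the start, and TTCCCA 1 time. The other 3 windows held none of the 4 motifs. Promoters of the table could be matched to 384 of the 550 genes that rose, 779 of the 1161 that fell and 10876 of all tested genes. The TCF/LEF motif was in 9.38% of promoters of genes that rose, 6.16% of those that fell and 7.46% of all tested, and in 11.4% of the 27305 promoters in the table. AGGTCA was in 8.33%, 8.60% and 8.22% of the promoters of genes that rose, genes that fell and all tested genes. TTCCCA was in 15.1%, 17.3% and 19.5%, and the GLI motif in 0 promoters of called genes and 0.193% of all tested. Of the 7 WNT response genes that rose, 4 had a promoter in the table and 1, SP5, held the TCF/LEF motif. A match is a run of letters and no evidence of binding, and a window without one says nothing about the factor.

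Retinoic acid genes split. CYP26A1, the enzyme that degrades retinoic acid in the anterior embryo, went from 219 and 223 TPM in aNE to 2.49 and 2.62 in aNE_H, a change of -5.96 ± 0.17 (adjusted p = 2.78e-11) to below the hPSC level of 4.56 and 5.16 TPM. It was the deepest fall among named genes. DHRS3, which reduces retinaldehyde and is induced by retinoic acid, fell from 15.1 and 18.3 to 0.765 and 1.03 TPM. RARB, a classical retinoic acid target, was at 0.478 and 0.213 TPM and was not called, with a difference of -0.70 ± 0.15 (adjusted p = 0.00304). Of 16 list genes 11 were tested, 2 fell and 5 rose, with a median of 0.96. The rises were those of STRA6, the cell surface receptor for retinol-binding protein, from 7.75 and 7.01 to 109 and 105 TPM, of the retinoid-binding proteins CRABP1 (159 and 177 to 983 and 946 TPM) and CRABP2, and of the corepressor NRIP1 (12.1 and 11.9 to 55.9 and 53 TPM). The genes that most directly follow retinoic acid in textbooks, CYP26A1, RARB and DHRS3, were thus low in aNE_H. In pNE_H the libraries had 39.5 and 31.1 TPM of CYP26A1, 56.9 and 65.5 TPM of RARB and 106 and 107 TPM of DHRS3.

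**Figure D4:**
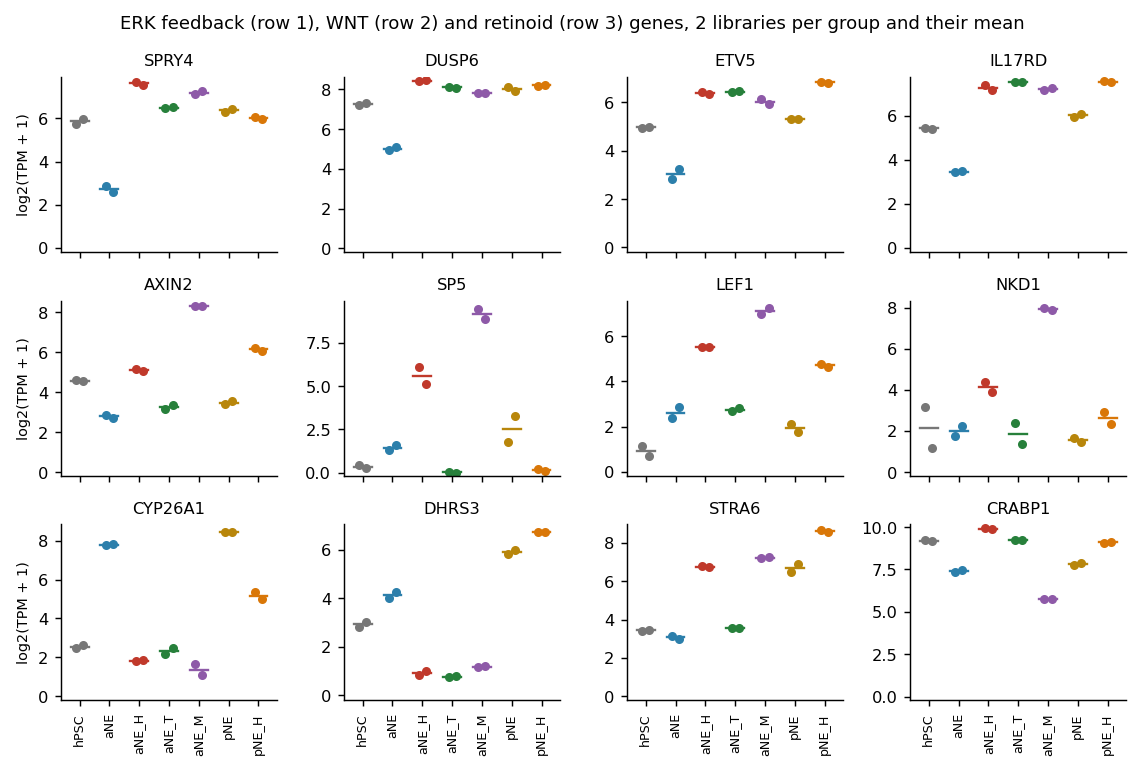
Log2(TPM + 1) of 4 ERK feedback genes (top row), 4 WNT response genes (middle row) and 4 retinoid genes (bottom row) in each library of 7 groups (points) with the group mean (line); each panel has its own vertical scale. SPRY4, DUSP6, ETV5 and IL17RD are lowest in aNE and high in all 3 day-4 groups of aNE origin, the WNT genes in aNE_H lie between aNE and aNE_M, and CYP26A1 and DHRS3 drop in aNE_H.

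BMP-linked genes included the largest named rise of the comparison. MSX1, a homeobox gene of the neural plate border and dorsal neural tube that BMP and WNT signals induce, went from 0.631 and 0.271 to 87 and 79.8 TPM and rose by 5.87 ± 0.20 (adjusted p = 1.33e-10). Its relative MSX2 rose by 2.42 ± 0.18 (adjusted p = 1.84e-07). The secreted BMP antagonists NOG and GREM1 rose as well, NOG from 0.396 and 0.493 to 38.7 and 36.6 TPM and GREM1 from 28.1 and 32 to 270.1 and 262. The ligand BMP5 went from 0.189 and 0.0798 to 12 and 11.7 TPM, and ID4 rose by 2.37 ± 0.13 (adjusted p = 1.46e-08). Other ID genes and SMAD6, which BMP signalling also induces, did not rise: ID1 fell from 131 and 135 to 48.8 and 35.2 TPM, and ID2, ID3 and SMAD6 were not called, with log2 differences of -0.60, 0.14 and 0.05. The ligand BMP4 fell from 209 and 210.3 to 79.5 and 78.2 TPM. In all, 17 of 19 genes were tested, 6 rose and 2 fell, with a median of 0.14, and 3 of 14 rose when either aNE_H library was left out.

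Dorsal neural tube genes repeated part of this list. Of 14, 9 were tested and 4 rose, PAX3, PAX7, MSX1 and MSX2. PAX3, a paired box gene of the dorsal neural tube and neural crest, went from 0.475 and 0.601 to 54.2 and 50.3 TPM, a rise of 5.12 ± 0.22 (adjusted p = 1.35e-09), and PAX7 from 0.126 and 0.354 to 8.84 and 7.76 TPM. With either aNE_H library left out, 1 of 6 tested genes rose. The roof plate gene LMX1A and the zinc finger genes ZIC1 and ZIC4 fell, and the calls were lost without aNE_H replicate 2 (log2 -0.54) and without aNE replicate 1 (log2 -0.84) for ZIC1 and without aNE_H replicate 1 (log2 -0.86) for ZIC4. Without aNE replicate 1, 0 dorsal genes fell, and without aNE replicate 2, 1 fell. Hedgehog genes were few: 10 of 18 were tested, HHIP, BOC and CDON, which bind hedgehog ligands at the cell surface, rose by 1.77 ± 0.25, 2.78 ± 0.14 and 1.78 ± 0.12, and GLI1, the standard readout of the pathway, and FOXJ1 fell. GLI1 stood at 12.8 and 10.1 TPM in aNE and 4.08 and 1.35 in aNE_H and lost its call without aNE_H replicate 2 (log2 -1.29). With aNE_H replicate 2, aNE replicate 1 or aNE replicate 2 left out, 1 hedgehog gene fell. PTCH1 was not called at 0.38 ± 0.12 (adjusted p = 0.0227), and SHH was at 0 and 0.0169 TPM in aNE and 0.0379 and 0.0184 in aNE_H.

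Genes of pluripotency fell or were not called. Of 20, 12 were tested, 6 fell and 0 rose (0 also at an unadjusted p below 0.05), with a median of -1.26. POU5F1 was still at 162 and 164 TPM in aNE, compared with 2899.8 and 2878 in hPSC, and was at 2.14 and 3.40 TPM in aNE_H, a change of -5.47 ± 0.22 (adjusted p = 6.58e-10). The germline and pluripotency factor PRDM14 went from 24 and 26 to 0.0830 and 0.0810 TPM, and TDGF1, ZFP42, SALL4 and DNMT3B fell with changes of -2.0 ± 0.17, -1.77 ± 0.10, -1.55 ± 0.10 and -1.69 ± 0.08. NANOG was at 0.259 and 0.247 TPM in aNE already and was not tested. LIN28A, an RNA-binding protein of early embryonic cells, had 1342 and 1302 TPM in aNE and 1187 and 1120.4 in aNE_H and was not called, with a difference of -0.20 ± 0.07 (adjusted p = 0.0575). POU5F1, NANOG and TDGF1 have near-identical processed copies in the genome, and how reads were divided among them is not given in the sources used here.

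Among 18 general neural genes, 16 were tested, 7 fell and 2 rose, with a median of -0.82. SOX2 went from 289 and 297 to 97.7 and 79.8 TPM, SOX3 from 207 and 189.5 to 34.7 and 28.1 and SOX21 from 157 and 152 to 12.9 and 8.15, all SOXB transcription factors of neural progenitors. SOX1 fell by 2.40 ± 0.21 (adjusted p = 1.09e-06) to 0.727 and 0.395 TPM. POU3F1, ZIC1 (with the limit given above) and the adhesion molecule NCAM1 fell too. The neural progenitor genes CDH2 and NES were not called, with differences of 0.02 ± 0.10 (adjusted p = 0.894) and -0.12 ± 0.09 (adjusted p = 0.312). FABP7, the radial glial fatty acid-binding protein, rose from 8.72 and 8.85 to 41 and 46.3 TPM and POU3F2 from 0.759 and 0.384 to 5.44 and 4.54, and 1 of 14 tested genes rose without either aNE_H library. Notch and neurogenesis genes gave 3 falls (DLL1, INSM1 and TUBB3) among 16 tested of 26 and 0 rises, with 2 higher at an unadjusted p below 0.05, and 5 of 15 fell without aNE_H replicate 1. The 2 higher genes, JAG1 and HEY1, also had an adjusted p below 0.05 and missed the call by size, with differences of 0.67 and 0.70. In aNE_H the neuronal gene STMN2 was at 0.519 and 0.308 TPM, DCX at 0.411 and 0.301 and ELAVL4 at 0 and 0.0368.

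Epithelial adhesion genes fell. All 21 adhesion genes of the list were tested, 10 fell and 3 rose, with a median of -1.0. EPCAM, an epithelial cell adhesion molecule, went from 148 and 138 to 8.86 and 9.66 TPM and fell by 3.81 ± 0.09 (adjusted p = 3.96e-12). CDH1, which encodes E-cadherin, went from 55.6 and 49.8 to 12.1 and 12 TPM. CLDN6, a tight junction claudin of pluripotent cells and early epithelia, went from 919.9 and 892 to 142 and 139 TPM and CLDN3 from 25.9 and 28.6 to 0.735 and 0.808. The sialomucin PODXL, an apical surface protein, went from 649 and 593 to 33.5 and 25.9 TPM, a change of -4.35 ± 0.10 (adjusted p = 3.08e-12). In each of these 5 genes the libraries of a group were close together and the groups far apart. CDH3, CLDN4, CLDN7, CLDN10 and OCLN completed the falls, with OCLN losing its call without aNE_H replicate 2 (log2 -0.99). The mesenchymal and neural cadherins CDH11 and CDH6 rose from 13.9 and 17.3 to 219.8 and 196 TPM and from 14.1 and 15.4 to 189 and 178 TPM, and the intermediate filament VIM from 432 and 390.4 to 1401 and 1239. E-cadherin fell while N-cadherin (CDH2) kept 152 and 141 TPM.

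Matrix genes gave 6 rises and 3 falls among 21 tested. The fibrillar collagen gene COL2A1 went from 92.4 and 74.8 to 605 and 504 TPM and fibronectin, FN1, from 31.9 and 27.8 to 114 and 107. COL1A2, COL11A1, FREM1 and COL5A2 rose by 1.43 ± 0.10, 1.31 ± 0.14, 2.22 ± 0.28 and 1.12 ± 0.15, COL5A2 losing its call without aNE replicate 2 (log2 0.87). The laminin receptor subunit ITGA6 went from 89.5 and 84.6 to 13.3 and 10.7 TPM, the laminin chain LAMA5 from 301 and 298 to 136 and 99.7 and FRAS1 from 72.5 and 66.7 to 22.9 and 17.3, all falls. Basement membrane genes COL4A1, COL4A2 and LAMB1 had differences of 0.06, -0.00 and 0.04 and were not called. Of 14 YAP-TEAD genes 3 rose, AMOTL1, YAP1 and ANKRD1, and ANKRD1 lost its call without aNE replicate 1 (log2 0.96). CCN2 was not called, at 159 and 162 TPM in aNE and 158 and 154 in aNE_H.

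Border and neural crest markers rose from low levels. Of 12 neural crest markers 10 were tested, 7 rose and 0 fell, with a median of 1.72. SNAI2, a zinc finger repressor of epithelial genes in the crest, went from 2.0 and 2.92 to 29.3 and 30.2 TPM, a rise of 3.17 ± 0.18 (adjusted p = 1.3e-08). SOX9 went from 13.7 and 15 to 117 and 107 TPM and TWIST1, a bHLH gene of mesenchyme, from 1.10 and 2.05 to 16.8 and 16. TFAP2A, which specifies the neural plate border, was at 4.30 and 2.64 TPM in aNE_H against 0.552 and 0.251 in aNE, and TFAP2B, SOX8 and PAX3 rose too. The summed level of the list was 80.0 and 82.2 TPM in aNE and 271 and 248 in aNE_H. The defining crest genes stayed low: SOX10 was at 3.36 and 2.44 TPM in aNE and 4.96 and 3.90 in aNE_H, with a difference of 0.48 ± 0.21 (adjusted p = 0.091), and FOXD3 was at 0.286 and 0.176 TPM and was not tested. NGFR, a receptor of migrating crest cells, went the other way, from 52.8 and 53.6 to 29.1 and 25.5 TPM, and was not called, with a difference of -0.94 ± 0.11 (adjusted p = 1.68e-05). With either aNE_H library left out, 4 of 7 tested markers rose, and without aNE_H replicate 1 NGFR was called lower. What part other cells in the culture have in these rises was not tested.

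**Figure D5:**
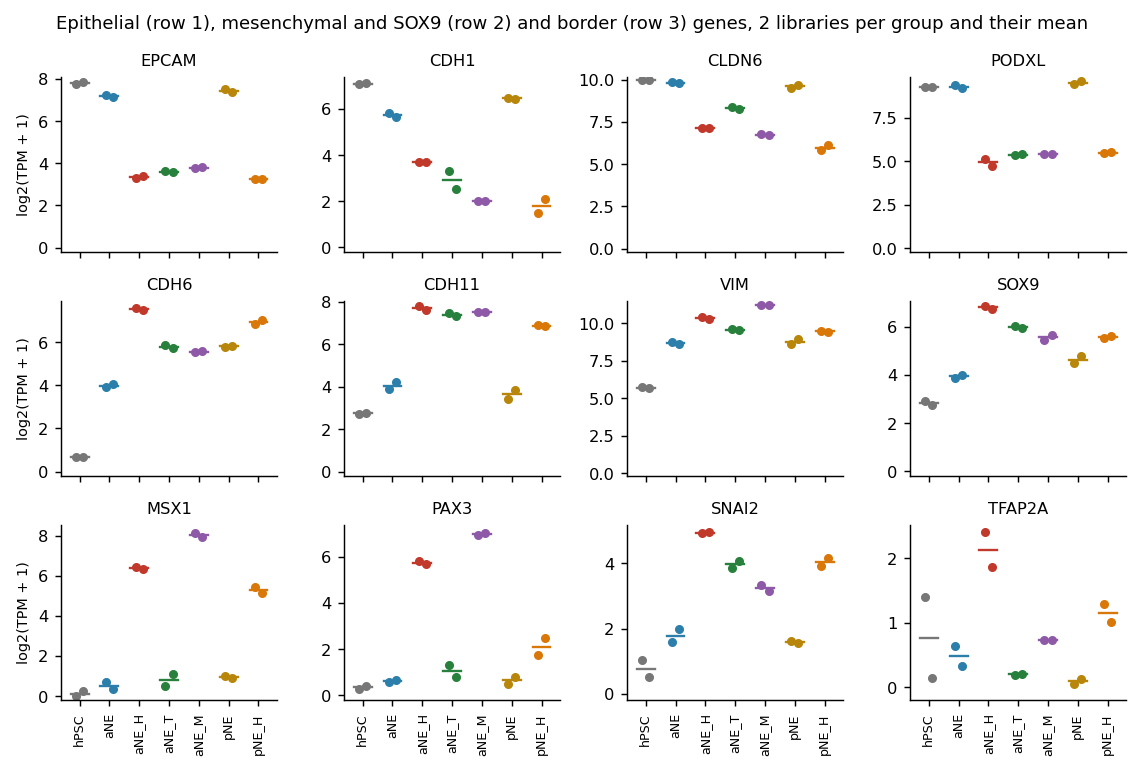
Log2(TPM + 1) of 4 epithelial genes (top row), CDH6, CDH11, VIM and SOX9 (middle row) and 4 border genes (bottom row) in each library of 7 groups (points) with the group mean (line); each panel has its own vertical scale. EPCAM, CDH1, CLDN6 and PODXL are lower in every day-4 group shown than in aNE and pNE, and MSX1, PAX3, SNAI2 and TFAP2A are near their floor in aNE and higher in aNE_H.

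Surface ectoderm and placode markers showed no common direction. Of 16, 14 were tested, 3 rose and 6 fell, with a median of -0.47. The simple epithelial keratins KRT8 and KRT18 rose from 302 and 311 to 669.5 and 631 TPM and from 291 and 274 to 723 and 669 TPM, while KRT19 fell from 208 and 212 to 60.2 and 48.9 TPM. The placode genes EYA2 and FOXI3 fell, together with EPCAM, CDH1 and CLDN6. GATA3 and TFAP2C were not called, GATA3 at 3.79 and 3.92 TPM in aNE_H and TFAP2C at 3.73 and 2.06, and TP63 was at 0 and 0.184 TPM in aNE and 0.403 and 0.0655 in aNE_H. Mesendoderm markers mostly lay below the filter, with 4 of 17 tested. The node gene GSC fell from 30.4 and 28.4 to 5.09 and 2.89 TPM, EOMES rose to 1.53 and 1.80 TPM and FOXC1 to 2.10 and 1.80. With either aNE_H library left out neither of these was called higher. TBXT and SOX17 were listed at 0 in both aNE_H libraries and MIXL1 stood at 0.146 and 0.445 TPM.

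The cell cycle, stress, cholesterol synthesis and IGF lists gave few calls. No cell cycle gene (21 tested) and no stress or unfolded protein gene (14 tested) was called by limma, while 15 and 11 of them had an unadjusted p below 0.05, in both directions. Most of these also had an adjusted p below 0.05 and missed the call by size, such as MCM5 with -0.94 and HSPA5 with 0.41. Cholesterol synthesis gave 1 call in 20, and the IGF axis gave 1 in 11, IGFBP6, a fall. Without aNE replicate 1, 2 genes of the IGF axis rose. Of 24 tested genes of glycolysis and hypoxia 3 rose and 3 fell, so 25.0% were called, against 11.7% of all tested genes. The glucose transporters SLC2A1 and SLC2A3 went from 241 and 224 to 1187 and 1097 TPM and from 378 and 366 to 1080.0 and 1035 TPM, and pyruvate kinase, PKM, from 533 and 535 to 1388 and 1357 TPM. ENO2, PFKP and the hypoxia-induced EGLN3 fell with changes of -2.32 ± 0.17, -1.66 ± 0.10 and -2.12 ± 0.14, and GAPDH was not called, with a difference of 0.03 ± 0.05 (adjusted p = 0.744). Of 23 axon guidance genes tested, 8 rose and 3 fell. SLIT2, a repulsive ligand, went from 1.90 and 1.85 to 26.3 and 23 TPM, SEMA3A from 9.30 and 11.2 to 52.8 and 43.9 and the receptor EPHA2 from 53.2 and 51.4 to 169 and 147. UNC5B, EPHA4 and EPHB2 fell, EPHB2 losing its call without aNE_H replicate 2 (log2 -0.80) and without aNE replicate 1 (log2 -0.97).

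Outside the lists, the largest named changes included several secreted and membrane proteins. ITGA8, an integrin subunit, was at 0 and 0.0135 TPM in aNE and 41 and 37.8 in aNE_H. SST, the gene of the peptide hormone somatostatin, was listed at 0 in both aNE libraries and at 39.8 and 34.4 TPM in aNE_H. CEACAM21, of the CEA adhesion family, went from 1.62 and 1.47 to 107 and 118 TPM, and LGI1, a secreted neuronal protein, from 1.25 and 1.58 to 55.2 and 55.2. BGN (biglycan), DLC1 (a GTPase-activating protein) and the bHLH gene ATOH8 rose by 4.22 ± 0.19, 4.18 ± 0.19 and 4.11 ± 0.14. These genes were chosen among those whose groups do not overlap. Among the falls, HES3, a Hes family repressor, went from 196 and 176 to 3.53 and 2.23 TPM, the neuronal pentraxin NPTX1 from 38.5 and 33 to 0.398 and 0.118, and RARRES2, which encodes chemerin, from 39.7 and 37.6 to 0.986 and 0.394. FRAT2, a GSK3-binding protein, went from 183 and 175 to 9.28 and 8.28 TPM, the sodium channel subunit SCNN1A from 87.7 and 61.9 to 4.60 and 1.69 and proline dehydrogenase, PRODH, from 62.5 and 54.8 to 3.38 and 1.86. TRBC2, CUZD1, C6orf132 and C13orf42 completed the 15, with changes from -4.14 for C13orf42 to -4.72 for TRBC2.

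The next question was how cells in hindbrain medium differed from sister cells of the same age and plating density in forebrain medium. Of 14439 genes tested, 1127 differed (7.81%), 303 higher in aNE_H (2.10%) and 824 lower (5.71%). Of the calls 26.9% were higher in aNE_H, and after quantile normalization 38.7%. Forebrain genes set the groups apart: of 15 tested, 12 were lower in aNE_H than in aNE_T and 1, EMX2, higher. SIX6 was at 2.86 and 3.20 TPM in aNE_H and 161 and 159 in aNE_T, with a difference of -5.32 ± 0.18 (adjusted p = 3.37e-10). FEZF2 was at 2.25 and 2.84 TPM in aNE_H and 82.6 and 75.4 in aNE_T, with a difference of -4.50 ± 0.24 (adjusted p = 1.96e-08). VAX1, which rose from day 2 in aNE_H, was higher still in aNE_T at 93.7 and 107 TPM. The secreted IGF-binding protein IGFBP3 was at 16.8 and 18.8 TPM in aNE_H against 745 and 769 in aNE_T. SLC15A3, a peptide and histidine transporter, was at 2.34 and 1.89 TPM against 78.2 and 69, and the growth factor gene PDGFB at 5.88 and 2.71 TPM against 96.6 and 89.1.

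The genes most in excess in aNE_H over aNE_T were MSX1, SP5, WLS, ITGA8 and PAX3. MSX1 was at 0.393 and 1.13 TPM in aNE_T and SP5 at 0.0243 and 0, differences of 5.61 ± 0.20 (adjusted p = 5.07e-10) and 5.59 ± 0.39 (adjusted p = 2.39e-07). WLS, the carrier that takes WNT ligands to the cell surface, was at 251 and 246 TPM in aNE_H and 5.76 and 7.03 in aNE_T, while aNE had 100.0 and 88.5 TPM. Among WNT response genes 9 of 15 tested were higher in aNE_H and 0 lower, AXIN2 by 1.89 ± 0.10 (adjusted p = 1.17e-08) and LEF1 by 2.77 ± 0.21 (adjusted p = 4.37e-07). With either aNE_H library left out 5 of 9 tested were higher. The FGF-ERK list had a median of -0.07 between these groups, with SPRY4 higher in aNE_H by 1.12 ± 0.10 (adjusted p = 2.95e-06) and 3 of 20 genes lower, EGR1, IER3 and CCN1. DUSP6 stood at 277 and 272 TPM in aNE_T, IL17RD at 186 and 184 and ETV5 at 85.1 and 87.4, and these 3 were not called. STRA6 was higher in aNE_H by 3.20 ± 0.12 (adjusted p = 6.16e-10), with 10.7 and 10.8 TPM in aNE_T. CYP26A1, POU5F1, PODXL and EPCAM, which fell from day 2 in aNE_H, were also low in aNE_T and were not called. The aNE_T libraries had 3.57 and 4.63 TPM of CYP26A1, 2.66 and 3.57 of POU5F1, 39.4 and 41.7 of PODXL and 11.4 and 10.9 of EPCAM.

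Against midbrain medium, 847 of 14113 tested genes differed (6.00%), 386 higher in aNE_H (2.74%) and 461 lower (3.27%). Of the calls 45.6% were higher in aNE_H, without aNE_H replicate 1 the share was 33.5%, and without aNE_M replicate 2 it was 55.4%, so the direction of the majority turned with that library left out. Midbrain genes and WNT targets were among the lower ones. DKK1, a secreted WNT antagonist and target, was at 1.04 and 1.26 TPM in aNE_H and 387 and 459 in aNE_M, with a difference of -7.62 ± 0.17 (adjusted p = 3.99e-12). EN1 was lower by 6.18 ± 0.18 (adjusted p = 5.65e-11) and PAX2 had a difference of -5.07 ± 0.18 (adjusted p = 4.7e-10), and APCDD1 stood at 8.01 and 5.14 against 337 and 373 TPM. MIXL1, a gene of the primitive streak, was at 0.146 and 0.445 TPM in aNE_H and 78 and 94.9 in aNE_M. In all, 7 of 12 tested midbrain genes were lower in aNE_H and 1, FGF8, higher. Without either aNE_M library 4 of 9 were lower. Of 17 tested WNT response genes 13 were lower and 1, MYC, higher, with a median of -2.60. MSX1 and PAX3, which rose from day 2 and exceeded aNE_T, were lower in aNE_H than in aNE_M. Of 7 tested dorsal neural tube genes 4 were lower (PAX3, MSX1, ZIC1 and ZIC4) and 0 higher. The dorsal list summed to 248.5 and 224.8 TPM in aNE_H and 532.6 and 520 in aNE_M. OTX2 was at 136 and 162 TPM in aNE_M and lower in aNE_H with a difference of -2.45 ± 0.14 (adjusted p = 2.96e-08), and ZNF503 was at 211 and 195 TPM and lower in aNE_H with a difference of -3.81 ± 0.17 (adjusted p = 2.23e-09).

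Genes higher in hindbrain than in midbrain medium included forebrain genes. LHX2 was at 0.192 and 0.0785 TPM in aNE_M and higher in aNE_H by 4.45 ± 0.32 (adjusted p = 2.32e-07), SIX3 was at 3.78 and 3.16 TPM and higher by 3.90 ± 0.15 (adjusted p = 6.61e-10), and VAX1 was at 1.92 and 1.0 TPM and higher by 4.04 ± 0.21 (adjusted p = 9.19e-09). Of 17 tested forebrain genes 8 were higher and 5 lower, 4 and 5 of 13 were higher without aNE_H replicate 1 or 2, and 2 of 14 were lower without either aNE_M library. ANKRD1, a YAP-TEAD target, was at 78.4 and 83.7 TPM in aNE_H and 0.491 and 0.306 in aNE_M, and DLK1, a Notch ligand homologue, at 2.98 and 3.35 against 184 and 149 in aNE_H. CRABP1 was at 53.5 and 52.5 TPM in aNE_M, lower than in aNE_H by 4.16 ± 0.06 (adjusted p = 6.92e-14). GBX2 and NR2F1 were higher in aNE_H than in both other media: GBX2 was at 29.3 and 30.7 TPM in aNE_T and 16.2 and 9.67 in aNE_M, with differences of 1.55 ± 0.19 (adjusted p = 4.2e-05) and 2.75 ± 0.19 (adjusted p = 2.17e-07), and NR2F1 at 0.659 and 0.422 TPM in aNE_T and 3.67 and 4.52 in aNE_M, with differences of 3.95 ± 0.17 (adjusted p = 2.58e-09) and 2.23 ± 0.17 (adjusted p = 4.27e-07). Both media comparisons use the same aNE_H libraries, so they are not independent of each other. Crest markers were mixed: of 10 tested, 6 were higher in aNE_H than in aNE_T and 1, NGFR, was lower. Against aNE_M 5 of 10 were higher and 2, PAX3 and SOX8, were lower. Only TWIST1, TFAP2A and SOX10 were higher in aNE_H than in both other media, TWIST1 by 3.12 ± 0.24 (adjusted p = 5.44e-07) and 2.37 ± 0.24 (adjusted p = 7.63e-06) and TFAP2A by 1.94 ± 0.36 (adjusted p = 0.00109) and 1.40 ± 0.36 (adjusted p = 0.0152). SOX10, which was not called against day 2, was at 1.39 and 0.981 TPM in aNE_T and 0.539 and 0.756 in aNE_M, with differences of 1.31 ± 0.21 (adjusted p = 0.000329) and 1.72 ± 0.21 (adjusted p = 4.81e-05).

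The last comparison asked whether the change over the hindbrain step differed between the origins. The interaction, which is the change from aNE to aNE_H minus the change from pNE to pNE_H, was called for 1336 of 15680 tested genes (8.52%), 663 above zero (4.23%) and 673 below (4.29%). The share above zero was 49.6%, and it lay between 44.6% without pNE replicate 2 and 55.7% without pNE_H replicate 1, so neither direction held a stable majority. Day-4 plating density differed between the origins, so origin and density cannot be told apart here. GBX2 had the largest positive value at 8.18 ± 0.28 (adjusted p = 1.29e-09). It rose in aNE_H, while in cells of posterior origin it stood at 172 and 216 TPM in pNE and 33.1 and 24.8 in pNE_H. CEACAM21 and then SP5 followed, with 7.51 and 5.57 TPM of CEACAM21 and 0.171 and 0.0905 TPM of SP5 in pNE_H. The FGF-ERK list had 15 positive and 1 negative call among its 20 genes. DUSP6 was at 274 and 238 TPM in pNE and 286 and 298 in pNE_H, and the interaction was 3.22 ± 0.11 (adjusted p = 1.29e-09). No call was made for the WNT targets AXIN2 and LEF1, with interactions of -0.34 ± 0.14 (adjusted p = 0.108) and 0.13 ± 0.29 (adjusted p = 0.83), for NR2F1, with 0.24 ± 0.23 (adjusted p = 0.55), or for NOG, with -0.17 ± 0.26 (adjusted p = 0.725). In pNE_H AXIN2 was at 73.3 and 66.2 TPM, LEF1 at 26.7 and 24, NR2F1 at 18.1 and 15 and NOG at 37.5 and 26.2, so all 4 were also above their day-2 levels in cells of posterior origin.

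Negative interactions included HOX and other hindbrain genes. Of 9 tested HOX genes of groups 1 to 4, 8 were negative, and without either pNE_H library 4 of 5. They met the filter only through the posterior libraries, so this direction was largely set by the filter and is given as a description. HOXB1 had an interaction of -4.18 ± 0.19 (adjusted p = 1.05e-08) and HOXB2 of -4.12 ± 0.23 (adjusted p = 5.7e-08). Of 17 tested hindbrain genes outside the HOX clusters 2 were positive (GBX2 and ZNF503) and 9 negative, among them EGR2 at -3.30 ± 0.36 (adjusted p = 2.55e-05). IGF2, a fetal growth factor gene, had the lowest value at -7.96 ± 0.23 (adjusted p = 2.84e-10): it stood at 2.63 and 1.77 TPM in aNE, 3.80 and 3.12 in aNE_H and 1381 and 1175 in pNE_H. The WNT antagonist SFRP5 and ID1 followed, SFRP5 with 108 and 90.4 TPM in pNE_H against 0.610 and 0.451 in aNE_H, and ID1 with 368 and 274 TPM against 48.8 and 35.2. IGF2 overlaps a read-through gene with INS, and how reads were divided is not given in the sources used here. CYP26A1 fell in both origins, from 352 and 348 TPM in pNE to 39.5 and 31.1 in pNE_H, with an interaction of -2.68 ± 0.25 (adjusted p = 6.02e-06). The retinoid genes RARB and DHRS3 were negative as well, at -2.22 ± 0.22 (adjusted p = 9.26e-06) and -4.04 ± 0.17 (adjusted p = 8.32e-09).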

How the data were processed

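RNA was measured in 18 libraries of H1 cells, with 9 groups of 2 biological replicates per the labels, after poly-T selection and random priming per the labels' protocols. The authors deposited 1 table of TPM values, which are scaled to a fixed sum in each library, so sequencing depth is not known and no interval for counting error is given. The submitters' processing notes name bcl2fastq, FastQC, Trim Galore, kallisto, deepTools and the build hg38, with no versions. The annotation and the strand setting are not given in the sources used here, so overlapping and antisense genes cannot be separated. Rows carry gene symbols only, and 7898 rows without a symbol were kept in the tests and are not named.

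From these values log2(TPM + 1) was computed and fitted with limma 3.58.1 (R 4.3.3, trend on mean level) as 9 group means over all 18 libraries, which leaves 9 residual degrees of freedom. Each comparison used genes that reached 1 TPM in 2 or more of the libraries compared, two-sided tests and Benjamini-Hochberg adjustment over those genes, and called genes at an adjusted p below 0.05 with a log2 fold change of 1 or more in size. The script was tested on simulated data. Tables and figures were made with Python 3.11.15, pandas 2.3.3, numpy 2.4.6 and matplotlib 3.10.9. No 2 libraries of a group were identical. Replicate numbers were checked for pairing through the correlation of deviations from the group means, which was 0.046 for aNE with aNE_H and above 0.1 in 0 of 36 pairs of groups, so the numbers were treated as names only.

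The members and the gene lists were chosen with earlier results of these data known. Named genes are members of 30 lists, the 15 largest rises and falls in aNE_H against aNE, the 5 largest differences each way against aNE_T and aNE_M, the 3 largest interactions each way, and the 3 genes on each side of the fold threshold. The largest changes were taken among called genes with a symbol and a mean of at least 5 TPM in the highest group, and, except for interactions, groups that do not overlap. Lists were described by counts and medians, without a test. Alternatives were a pseudocount of 0.1, other filters (none, 5 TPM, or over all 18 libraries), quantile normalization, median-ratio scaling, a fit restricted to the compared libraries, the adjusted p alone, a replicate term and leaving out each library. Promoter windows came from a RefSeq table on GRCh38.p14. Proteins were not analysed here. Some genes that enter the counts are not reported here by name.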

Additional observations from a re-analysis of the deposited data

Results flagged for a closer look

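Changes over the hindbrain step that differed between the origins were tested as an interaction in limma, and the 3 largest in each direction are given here. The value is the log2 change from aNE to aNE_H minus that from pNE to pNE_H. GBX2 had 8.18, with 1.04 and 1.05 TPM in aNE and 91.9 and 88 in aNE_H, against 172 and 216 in pNE and 33.1 and 24.8 in pNE_H. CEACAM21 had 6.88, with 19.2 and 18.3 TPM in pNE and 7.51 and 5.57 in pNE_H. SP5 had 6.52, and its libraries within groups lay far apart, at 68.6 and 33.3 TPM in aNE_H and 2.47 and 8.76 in pNE. IGF2 had -7.96, SFRP5 -6.44 and ID1 -5.74. IGF2 and SFRP5 were not called in aNE_H against aNE, with differences of 0.49 ± 0.16 (adjusted p = 0.0285) and -0.48 ± 0.20 (adjusted p = 0.0784), and both were high in pNE_H. ID1 fell in aNE_H and was higher in pNE_H (368 and 274 TPM) than in pNE (15 and 21.3 TPM). Plating density at day 4 also differed between the origins, and the 2 cannot be told apart. No group had the 4 samples that a search for single outlying libraries needs.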

How the results depend on the processing

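With 2 libraries a group, the 9 residual degrees of freedom come mostly from groups outside each comparison, so the compared groups are assumed to vary like the rest. Depth is unknown, and genes near 1 TPM enter or leave the tests with a single library. Counts by adjusted p alone were 5338 for aNE_H against aNE, 4732 against aNE_T, 2487 against aNE_M and 2805 for the interaction. Of the 5338, 44.7% were higher in aNE_H, of the 4732, 40.6%, of the 2487, 44.9%, and of the 2805, 57.9% were above zero. Leaving out 1 library at a time gave 1340 to 1647, 919 to 1127, 683 to 781 and 1148 to 1330 calls. For aNE_H against aNE, other counts were 2057 with a pseudocount of 0.1, 1163 with a filter at 5 TPM and 1634 after quantile normalization. With the replicate number as a block the 4 counts were 1711, 1132, 847 and 1326. Deviations of same-numbered libraries correlated between -0.09 and 0.076, so the numbers do not pair the samples. Of 427 named genes tested, 184 were called. Of these, 137 were tested under every alternative and 125 were also called under each, and no tested gene reversed its direction. Leaving out 1 library took 43 of the 184 out of the test through the filter, 27 of them without an aNE_H library and 16 without an aNE library, and the filter at 5 TPM took out 24. Among genes still tested, leaving out 1 library ended the call of 16, and RSPO1 was lost under quantile normalization. Of the 243 not called, 137 became called under at least 1 alternative, which include the rule by adjusted p alone.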
